A study of Mus musculus with 6 samples.

Results

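Interferon-stimulated genes and the interferon regulatory factors (IRFs) were followed in isolated mouse pancreatic islets cultured with or without prolactin. The set comprised 40 genes, chosen by name, by a rule that uses no measured value but with earlier results of these data known, out of 48397 gene names counted. The islets came from wild-type C57B6 mice and were a mixture of cell types, in which beta cells, the source of insulin, lie among further hormone-secreting, vascular and connective-tissue cells. After an overnight rest in culture they received DMSO (control) or recombinant mouse prolactin at 500 ng/mL for 24 h. Polyadenylated RNA was sequenced as 3 libraries per condition. Nothing in the labels says whether replicates are separate animals or cultures, and the p-values therefore rest on a spread between libraries that may be technical.

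Interferons are cytokines made during viral infection and inflammation. Type I interferons bind the receptor of IFNAR1 and IFNAR2, whose kinases JAK1 and TYK2 activate STAT proteins, STAT2 among them, that join IRF9 in a complex that binds the interferon-stimulated response element of target promoters. Type II interferon, through IFNGR1 and IFNGR2, acts on promoters that hold the gamma-activated site. Targets include sensors of viral RNA, enzymes and binding proteins that block viral replication, and the factors IRF1, IRF7 and IRF9 themselves, which amplify the response. Beta cells carry these receptors, and an interferon signature in islets has been studied in type 1 diabetes. The prolactin receptor belongs to the same wide class of cytokine receptors and signals mainly through JAK2 and STAT5.

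The response element is the sequence that these genes are known for, and upstream windows that hold its core are shown for the 4 members with the smallest p-values among those with a match. The core was searched as GAAANNGAA, which reads TTCNNTTTC on the other strand, in the 250 bases before each start given by RefSeq (GRCm38.p6). Of 31 members with a window, 13 held at least 1 match (41.9%), against 8.18% of 27025 genes of the table. The members without a window were Dhx58, Oas1b, Oas2, Usp18, Mx1, Mx2, Rtp4, Parp9 and Parp14. Capitals mark the core, which in these 4 windows stands in its other-strand form.
Ifit3b: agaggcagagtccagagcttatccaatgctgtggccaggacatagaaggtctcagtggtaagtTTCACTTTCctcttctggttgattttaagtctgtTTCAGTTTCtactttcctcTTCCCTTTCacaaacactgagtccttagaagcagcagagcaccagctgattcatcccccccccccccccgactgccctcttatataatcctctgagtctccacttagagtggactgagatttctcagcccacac
Ifit3: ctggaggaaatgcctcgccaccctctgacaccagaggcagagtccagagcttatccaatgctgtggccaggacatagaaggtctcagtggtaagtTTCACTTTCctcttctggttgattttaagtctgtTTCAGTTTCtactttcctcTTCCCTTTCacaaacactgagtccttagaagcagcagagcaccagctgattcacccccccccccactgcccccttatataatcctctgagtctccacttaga
Ifit1: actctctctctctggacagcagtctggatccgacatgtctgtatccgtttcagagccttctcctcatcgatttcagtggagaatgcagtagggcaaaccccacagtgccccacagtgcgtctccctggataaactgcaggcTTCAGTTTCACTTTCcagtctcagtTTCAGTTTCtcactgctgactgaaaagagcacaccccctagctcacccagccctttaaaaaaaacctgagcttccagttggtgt
Stat2: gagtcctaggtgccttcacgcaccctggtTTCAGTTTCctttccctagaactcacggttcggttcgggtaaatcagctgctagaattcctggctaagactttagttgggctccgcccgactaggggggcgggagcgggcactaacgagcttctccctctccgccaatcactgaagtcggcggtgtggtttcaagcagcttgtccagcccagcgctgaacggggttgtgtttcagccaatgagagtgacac

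These windows lie on the plus strand at chr19:34607707-34607956 for Ifit3b, chr19:34583279-34583528 for Ifit3, chr19:34640639-34640888 for Ifit1 and chr10:128270248-128270497 for Stat2. The Ifit3b matches begin 187, 153 and 134 bases before the start and those of Ifit3 at 155, 121 and 102 bases, a shift of 32 bases for each. Over the 218 bases that the pair of windows shares at that shift, 188 were identical (86.2%). Ifit1 has 2 overlapping matches, at 109 and 103 bases, and another at 84 bases. The gamma-activated site, searched as TTCNNNGAA, which is the same on both strands, stood before the start of 7 of the 31 members (22.6%, against 8.13% of all genes), Irf1 among them. It can overlap the response element core. The window of Trim21 held neither set of letters. A match is a description of the letters, not evidence that a factor binds there, and RefSeq starts can differ from the gene models used for counting. Bases just after the start were found in a GENCODE transcript of the same gene for 33 of 37 windows. Those of the printed Ifit3b and Stat2 windows were not found, so their distances rest on the RefSeq start alone.

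Levels are given in CPM, counts scaled to the size of the library by TMM. A change is prolactin relative to control on the log2 scale, from edgeR's quasi-likelihood test with Benjamini-Hochberg adjustment over all 23924 genes tested (n = 3 per condition). Libraries held 230833584 to 530296257 counted reads, and the 40 genes took 0.125% to 0.165% of them. The insulin transcript Ins2, the defining marker of islets, stood between 70626 and 90043 CPM. Prolactin replicates 2 and 3 were nearer to each other than any other pair of libraries: the median chi-square per gene between them was 1.44, against 3.33 to 7.64 in the other 14 pairs. They were not identical and were kept as separate libraries, but this chi-square cannot show whether they were separate cultures. The calls and log2 changes were also computed with them summed. All 40 members passed the expression filter, with at least 241 reads in each library.

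Most of the interferon genes did not pass the test. Of 40 members, 1 fell in prolactin, Trim21, and 0 rose, while 39 did not pass. Over all tested genes 0.104% were called lower and 0.652% higher. At an unadjusted p under 0.05, 12 members were lower and 0 higher in edgeR, where 6.68% of all genes were lower. DESeq2 called 3 members lower and limma-voom 1, and neither called any higher. Over all genes DESeq2 called 303 of 18913 lower and limma-voom 21 of 23924. The median log2 change of the members was -0.19, against 0.00 for all tested genes (0.00039), and 35 of 40 changes were negative, against 49.9% of all genes. That median was -0.07 without control replicate 3 and -0.31 without control replicate 2, so a single control library moves it by more than 1.5 times. The prolactin libraries all lay below the control libraries in 3 members and all above in 0, where 10.4% of tested genes separated downward and 11.3% upward. The share of members that separated was thus no larger than the background. The shares lower at unadjusted p and lower in DESeq2 were larger than over all genes, and most changes had a negative sign. No test was made of the list.

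**Figure D1:**
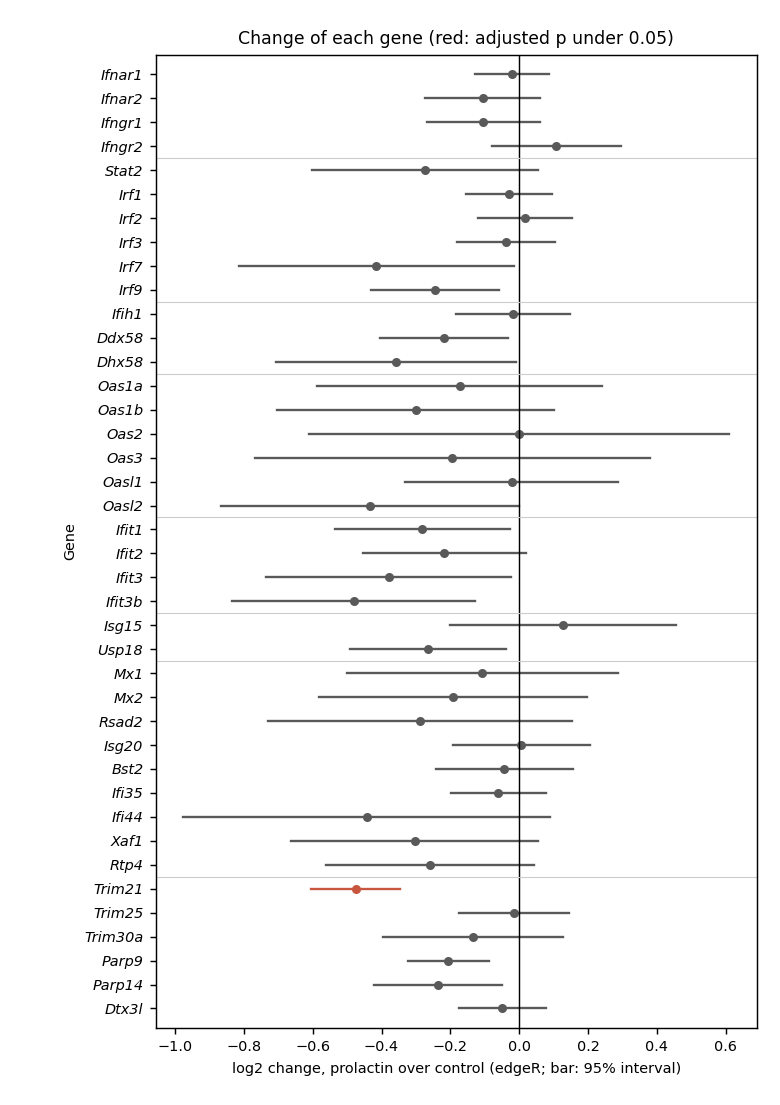
The log2 change of each gene, prolactin over control, with the edgeR estimate as a point and its 95% interval as a bar; grey lines part the role classes. Trim21, in red, is the 1 gene past the adjusted threshold, and 35 of the 40 points lie left of 0.

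Trim21, on chromosome 7 (102557921 to 102565486, minus strand, mm10), encodes a cytosolic receptor for antibody Fc that is also a ubiquitin ligase and acts on antibody-coated viruses. It stood at 21.0, 19.7 and 19.4 CPM in control replicates 1, 2 and 3, and at 14.3, 14.4 and 14.6 CPM in prolactin replicates 1, 2 and 3. The lowest control library lay well above the highest prolactin library, and the libraries of each condition were close. It went from 20.03 ± 0.824 to 14.4 ± 0.165 CPM (SD), a log2 change of -0.48 (SE 0.057, 95% interval -0.60 to -0.35, edgeR adjusted p = 0.00865), lower in 3 of 3 prolactin libraries. The size of the change moved little over the 16 alternative fits, from -0.50 to -0.44. The call was lost in 3 of them: without prolactin replicate 2 (adjusted p = 0.0854), without prolactin replicate 3 (adjusted p = 0.0752), and with that close pair summed (adjusted p = 0.0782). In the authors' deposited table its log2 fold change was -0.47 (adjusted p = 2.09e-08).

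Other members with a ubiquitin ligase or ADP-ribosylation role did not pass. Parp9 and its partner Dtx3l form a complex that joins ADP-ribosylation to ubiquitin transfer at damaged DNA and in antiviral signalling. Parp9 (chromosome 16, 35938470 to 35972605) was at 57.7, 53.0 and 53.7 CPM in the control replicates and 47.9, 47.4 and 47.2 CPM in the prolactin replicates. Its conditions did not overlap either, but the difference was smaller than that of Trim21, a log2 change of -0.21 (SE 0.052, 95% interval -0.32 to -0.09, adjusted p = 0.124). In the authors' deposited table Parp9 had an adjusted p of 0.0479. Dtx3l was between 36.7 and 41.6 CPM over the 6 libraries, with a log2 change of -0.05 (95% interval -0.17 to 0.08). The exons of the pair overlap on opposite strands over 458 bases, 9.4% of those of Parp9, and reads there could not be assigned to 1 of them by strand. Parp14, a further ADP-ribosyltransferase, stood at 94.1, 80.0 and 99.6 CPM in control and 82.0, 75.5 and 74.9 CPM in prolactin (log2 change -0.24, adjusted p = 0.242). Here prolactin replicate 1 lay above control replicate 2, so the conditions overlapped. Trim25, the ligase that activates the RNA sensor RIG-I, was at 101.5, 106 and 121 CPM and at 107, 109 and 110 CPM, and its prolactin libraries lay inside the control range. Trim30a, a TRIM family gene of rodents, was lower in level, from 3.64 to 4.79 CPM, with overlapping conditions (log2 change -0.13, adjusted p = 0.652).

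**Figure D2:**
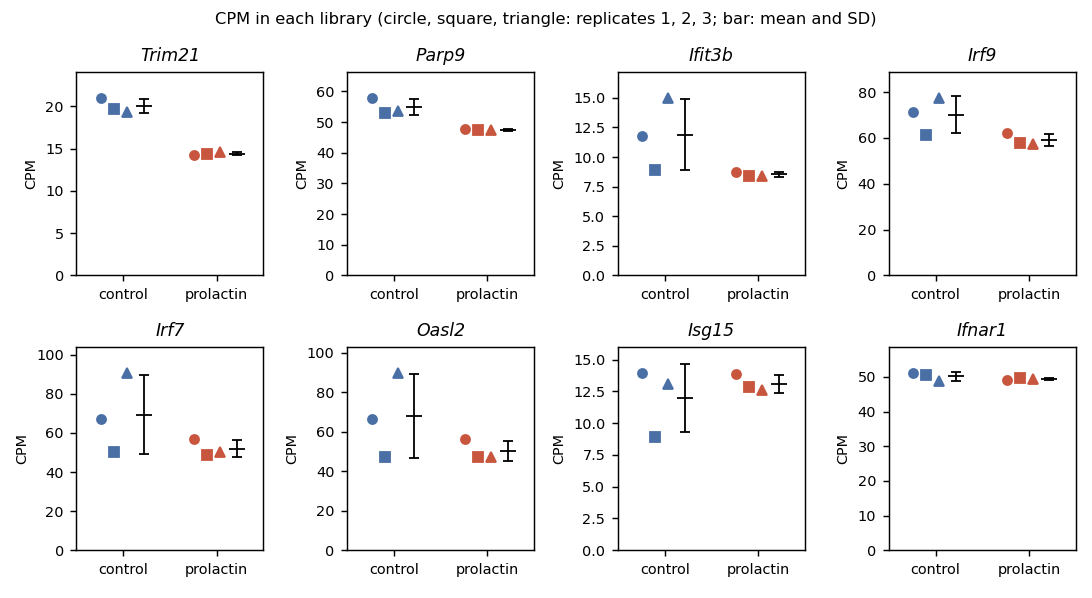
CPM of 8 members in each library, with a marker shape per replicate number and the mean and SD of a condition as a bar; each axis starts at 0. Trim21 and Parp9 separate with little spread, Irf7 and Oasl2 differ most among the control libraries, and Ifnar1 lies between 48.7 and 51.1 CPM in all 6.

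Of the 4 receptor genes, Ifnar1 varied least. The SD of its log2 CPM over the control libraries was 0.037, against 0.130 to 0.142 in the others. Ifnar1 was at 51.1, 50.7 and 48.7 CPM in control and 49.1, 49.8 and 49.4 CPM in prolactin, and the 95% interval of its log2 change ran from -0.13 to 0.09. Ifnar2, the other chain of the type I receptor, was at 33.9, 31.7 and 27.9 CPM in control and 30.0, 28.5 and 28.3 CPM in prolactin. Control replicate 3 was its lowest library, and the conditions overlapped (log2 change -0.11, adjusted p = 0.56). The type II receptor genes Ifngr1 and Ifngr2 lay between 20.6 and 26.7 CPM in all libraries, with log2 changes of -0.10 and 0.11 and adjusted p of 0.562 and 0.607. A p that misses the threshold does not show equal levels, but the intervals of these 4 genes reached at most 0.30 in either direction on the log2 scale.

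Among the transcription factors, Irf9, Irf7 and Stat2 differed between control libraries, while Irf1, Irf2 and Irf3 held a narrow range. Irf9, the DNA-binding subunit of the type I complex, stood at 71.5, 61.4 and 77.3 CPM in control and 62.03, 57.8 and 57.6 CPM in prolactin. Only prolactin replicate 1 reached into the control range, just above control replicate 2, and the log2 change was -0.24 (SE 0.082, adjusted p = 0.225). Irf7, which drives the later wave of type I interferon genes, was at 67.2, 50.3 and 90.6 CPM in control against 57.1, 48.9 and 50.1 CPM in prolactin. Its control libraries thus spanned nearly all of its values (log2 change -0.41, 95% interval -0.81 to -0.02, adjusted p = 0.325), and the change was -0.18 without control replicate 3 and -0.60 without control replicate 2. Stat2, which supplies the activation domain of that complex, was at 75.8, 68.6 and 109 CPM in control and 70.2, 69.7 and 69.6 CPM in prolactin. Control replicate 3 stood alone, and the other 5 libraries lay within 68.6 to 75.8 CPM (log2 change -0.28, adjusted p = 0.428). With control replicate 3 left out the Stat2 change was -0.05.

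Irf1, an early target of both interferon types, was at 72.6, 70.4 and 70.2 CPM in control and 65.7, 73.1 and 70.1 CPM in prolactin. The lowest and the highest library were both prolactin ones, and the 95% interval of the log2 change was -0.15 to 0.09. Irf2, a repressor that competes with IRF1, had an interval of -0.12 to 0.15, and Irf3, the factor that sensors of viral nucleic acid activate first, one of -0.18 to 0.10. The exons of Irf3, Irf7, Irf9 and Irf1 share 45 to 135 bases with those of neighbouring genes, 1.19% to 3.4% of their length. Among all members the largest such shares were those of Ifi35 (16.8%), Rtp4 (13.9%) and Ifnar2 (9.46%).

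The sensors of double-stranded RNA showed the same unevenness among controls. Ddx58, which encodes RIG-I, was at 68.3, 55.9 and 68.9 CPM in control and 57.6, 53.2 and 55.0 CPM in prolactin (log2 change -0.22, SE 0.082, adjusted p = 0.274). Dhx58, which encodes the regulator LGP2, was at 18.3, 13.7 and 22.8 CPM in control and 15.2, 13.9 and 13.7 CPM in prolactin (log2 change -0.36, adjusted p = 0.335). The Dhx58 change was -0.17 with control replicate 3 left out and -0.53 with control replicate 2 left out. In both, control replicate 2 fell among the prolactin libraries. Ifih1, which encodes MDA5, was at 81.0, 68.5 and 79.6 CPM against 78.9, 71.5 and 75.8 CPM, with no separation (95% interval -0.18 to 0.15).

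In the IFIT family, of which IFIT1 binds viral RNA that lacks the host's cap methylation, all 4 changes were negative and 0 passed. Ifit3b was at 11.8, 8.94 and 14.97 CPM in control and 8.74, 8.41 and 8.44 CPM in prolactin. It had the most negative log2 change of all members, -0.48 (SE 0.16, 95% interval -0.83 to -0.13, adjusted p = 0.208), and separated by a narrow gap above prolactin replicate 1. Its call depends on the tool, since the authors' deposited table gave it an adjusted p of 0.0156. Ifit3 was at 30.9, 22.2 and 37.6 CPM in control and 24.9, 22.3 and 22.6 CPM in prolactin (log2 change -0.38, adjusted p = 0.316). Control replicate 2 was its lowest library. With control replicate 3 left out, the change was -0.29 for Ifit3b and -0.19 for Ifit3. The pair is hard to part by sequence: 51.2% of the distinct 50-base stretches of Ifit3 transcripts also stand in those of Ifit3b, and their counts are uncertain. Ifit1 was at 49.1, 37.7 and 53.2 CPM in control and 40.9, 37.6 and 36.9 CPM in prolactin (log2 change -0.28, adjusted p = 0.301). The prolactin libraries again sat beside control replicate 2, and the Ifit1 change was -0.18 with control replicate 3 left out. Ifit2 ranged from 8.06 to 11.6 CPM (log2 change -0.22, adjusted p = 0.387).

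The OAS family makes or resembles the enzymes that activate RNase L in response to double-stranded RNA, and it was the class whose median SD of log2 CPM among control libraries was the largest of the 8 role classes. Oasl2 was at 66.6, 47.2 and 89.6 CPM in control and 56.1, 47.2 and 47.3 CPM in prolactin (log2 change -0.43, 95% interval -0.87 to -0.0002, adjusted p = 0.345). Control replicate 3 was far above control replicate 2, which lay among the prolactin libraries, and the Oasl2 change was -0.18 with control replicate 3 left out. Oasl1, a translational inhibitor of Irf7, was at 7.07, 5.49 and 8.41 CPM in control and 6.81, 7.01 and 6.83 CPM in prolactin. Oas1a was at 11.4, 7.39 and 12.6 CPM in control and 10.9, 8.65 and 8.35 CPM in prolactin, and Oas1b at 4.71, 3.46 and 5.97 CPM in control and 4.11, 3.91 and 3.46 CPM in prolactin. In these 3 genes, too, control replicates 2 and 3 were the lowest and highest of the control libraries. Oas2 had control values from 8.38 to 21.3 CPM and a log2 change of 0.00, with the widest interval of the family, -0.61 to 0.61. Leaving out control replicate 3 gave 0.44 and leaving out control replicate 2 gave -0.26, so these libraries do not fix its direction. Oas3 was the lowest member per length, between 0.887 and 1.98 CPM. Oas1a and Oas1b share 0.708% of the 50-base stretches of Oas1a, and Oasl1 and Oasl2 share none (0.0%).

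The ubiquitin-like protein ISG15 is attached to other proteins in the interferon response and removed by the protease USP18, which also blocks the type I receptor. Isg15 was at 13.9, 8.93 and 13.1 CPM in control and 13.9, 12.8 and 12.6 CPM in prolactin (log2 change 0.13, adjusted p = 0.745), and its 1 low library was control replicate 2. Usp18 was at 35.8, 28.5 and 37.0 CPM in control and 30.6, 27.2 and 26.6 CPM in prolactin (log2 change -0.27, SE 0.10, adjusted p = 0.276). The genes of this pair thus had changes of opposite sign, neither past the threshold.

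Of the 9 other effectors 0 passed edgeR's test, also at an unadjusted p under 0.05, and none was called by DESeq2 or limma-voom (smallest adjusted p in edgeR 0.418). Isg20, an exonuclease that degrades RNA, was at 133, 117 and 114 CPM in control and 137, 117 and 112 CPM in prolactin. Replicate 1 was its highest library in both conditions. Bst2, which encodes the virion tether tetherin, was at 28.0, 23.0 and 28.2 CPM in control and 27.7, 24.8 and 24.4 CPM in prolactin. Mx1, a dynamin-like antiviral GTPase gene that is known to be truncated by a deletion in C57BL/6 mice, was at 2.47, 1.94 and 3.21 CPM in control and 2.26, 2.56 and 2.25 CPM in prolactin. Its relative Mx2 was at 5.12, 3.79 and 6.32 CPM in control and 5.01, 4.26 and 4.08 CPM in prolactin. In both Mx genes the prolactin libraries lay inside the control range. The radical enzyme viperin, encoded by Rsad2, ranged from 19.1 to 37.0 CPM, Rtp4 from 27.5 to 41.1 CPM, Xaf1 from 13.99 to 23.5 CPM and Ifi44 from 3.38 to 7.42 CPM. In each of these 4 genes the lowest and the highest library were control replicates 2 and 3. Ifi35 was steadier, between 23.2 and 26.4 CPM.

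**Figure D3:**
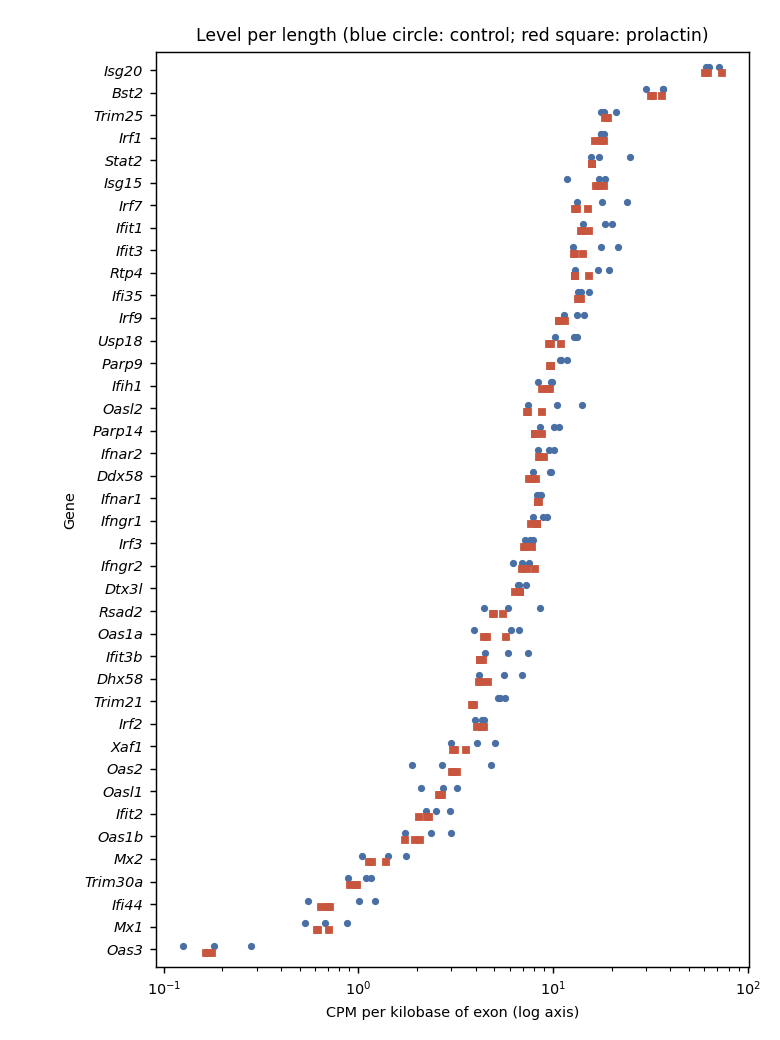
Level of each gene per length, as CPM per kilobase of exon on a log axis, with 1 point per library (blue circles control, red squares prolactin), ordered by the mean. Isg20 is highest at 65.5 and Oas3 lowest at 0.183 CPM per kilobase.

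Per length, the interferon genes spanned a wide range of levels in these islets. Isg20 had a mean of 65.5 CPM per kilobase of exon over the 6 libraries, Bst2 34.1, Trim25 18.9, Irf1 17.7 and Stat2 17.5. Trim25, Irf1 and Stat2 overlap in their range over libraries, while Isg20 and Bst2 stand clear of each other and of the rest. The interferon receptors and the sensor genes Ifih1 and Ddx58 lay in the middle of the order, with Ifih1 at 9.30, Ifnar2 at 9.02, Ddx58 at 8.49, Ifnar1 at 8.47, Ifngr1 at 8.404 and Ifngr2 at 7.17, each overlapping its neighbour. The remaining sensor gene, Dhx58, was lower at 4.97. Mx1 at 0.671 and Oas3 at 0.183 were the lowest. Exon length here is that of all annotated exons of a gene, so levels of genes with long untranslated or retained exons are understated.

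Transcripts of the interferon genes examined were close to 0. None of 12 interferon genes listed (Ifnb1, Ifnk, Ifne, Ifnz, Ifng, Ifnab, 4 Ifna and 2 Ifnl genes) passed the expression filter, and the highest level of any was 0.0428 CPM, that of Ifnk. Together they had 17 to 85 reads per library, or 0.068 to 0.158 CPM, the most in control replicate 1, the deepest library. Ifnb1 had between 0 and 8 reads.

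The other genes of the pathway were read the same way. Of 17 further receptor and signalling genes 0 passed in edgeR, and their median log2 change was 0.05. With unadjusted p under 0.05 there were 3 higher and 1 lower, and DESeq2 and limma-voom each called 0. Over all genes 6.68% were lower at that level, and the share higher was not counted. The libraries separated upward in 5 of the 17 and downward in 2, against 11.3% and 10.4% of all tested genes. The smallest p-values belonged to Irf2bp2 (log2 change 0.24, adjusted p = 0.246) and Irf2bpl (0.18, adjusted p = 0.25), whose proteins belong to the family of IRF2-binding corepressors, to Irf8 (0.19, adjusted p = 0.319), a factor of myeloid and lymphoid cells, and to Jak2 (-0.11, adjusted p = 0.32). Of 16 genes of nucleic-acid sensing 0 passed in edgeR. With unadjusted p under 0.05 there were 1 higher and 2 lower, and DESeq2 called 1 and limma-voom 0. The libraries separated upward in 4 of the 16 and downward in 2. In both lists the share separated upward was larger than over all genes, and no test was made of the lists. The endosomal RNA receptor gene Tlr3 came nearest, with 18.6, 18.7 and 20.7 CPM in control and 15.4, 15.9 and 16.3 CPM in prolactin (log2 change -0.28, adjusted p = 0.0929). The RNA-activated kinase gene Eif2ak2 differed by -0.21 on the log2 scale (adjusted p = 0.178), Tlr7 by 0.32 (adjusted p = 0.329) and Ticam1 by 0.12 (adjusted p = 0.352).

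Of 46 further interferon-stimulated genes 0 passed in edgeR. With unadjusted p under 0.05 there were 1 higher and 11 lower, DESeq2 called 1 higher and 6 lower, and limma-voom called 0. Their median log2 change was -0.07, with 35 of 46 negative, and 10 separated downward and 1 upward. The shares lower at unadjusted p, lower in DESeq2 and separated downward are larger than those over all genes, which were 6.68%, 1.6% and 10.4%, and no test was made of the list. Tor3a, which encodes an ATPase of the endoplasmic reticulum, lay just short of the threshold: it was at 87.0, 90.4 and 90.9 CPM in control and 72.8, 74.7 and 76.0 CPM in prolactin (log2 change -0.26, SE 0.049, adjusted p = 0.0512). Unlike most members, it was even across the control libraries. Ube2l6, the conjugating enzyme for ISG15, differed by -0.26 on the log2 scale (adjusted p = 0.139) and Cmpk2, a nucleotide kinase, by -0.24 (adjusted p = 0.146). Ifi27l2a went the other way, with 2.34, 2.20 and 2.096 CPM in control and 3.06, 3.03 and 3.04 CPM in prolactin (log2 change 0.46, adjusted p = 0.0801). In the authors' deposited table, 3 of the 40 members had an adjusted p under 0.05, all lower (Trim21, Ifit3b and Parp9), where 1.6% of the genes with a value were lower.

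The control libraries differed among themselves in these genes, in an order noticed after the values were seen. Control replicate 2 was the lowest control in 30 of 40 members and control replicate 3 the highest in 29, against 30.9% and 37.8% of all tested genes. Both held, with control replicate 1 between them, in 26 members (65%), against 20% of all tested genes. At a mean of at least 5 CPM the shares were 61.8% of 34 members and 10.3% of 11590 genes. The SD of log2 CPM over the control libraries had a median of 0.206 in the members and 0.15 in all tested genes, and over the prolactin libraries 0.0735 and 0.0972. At a mean of at least 5 CPM the medians were 0.17 and 0.0969 over the control libraries and 0.0727 and 0.0465 over the prolactin libraries, so that above this level the members varied more than all tested genes in both conditions. The prolactin SDs include the close pair of libraries and were not computed with that pair summed. Against control replicate 2 alone the mean of the prolactin libraries was 0.05 higher in the median member, with 14 of 40 lower. Against control replicates 1 and 3 it was 0.21 and 0.39 lower on the log2 scale (medians of -0.209 and -0.394), with 36 and 35 of 40 lower. Of the controls, replicate 2 lay nearest to prolactin replicates 2 and 3 in these genes, with median absolute log2 differences of 0.0695 and 0.0768. Prolactin replicate 1 lay about as near to control replicate 1 (0.165) as to control replicate 2 (0.16).

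**Figure D4:**
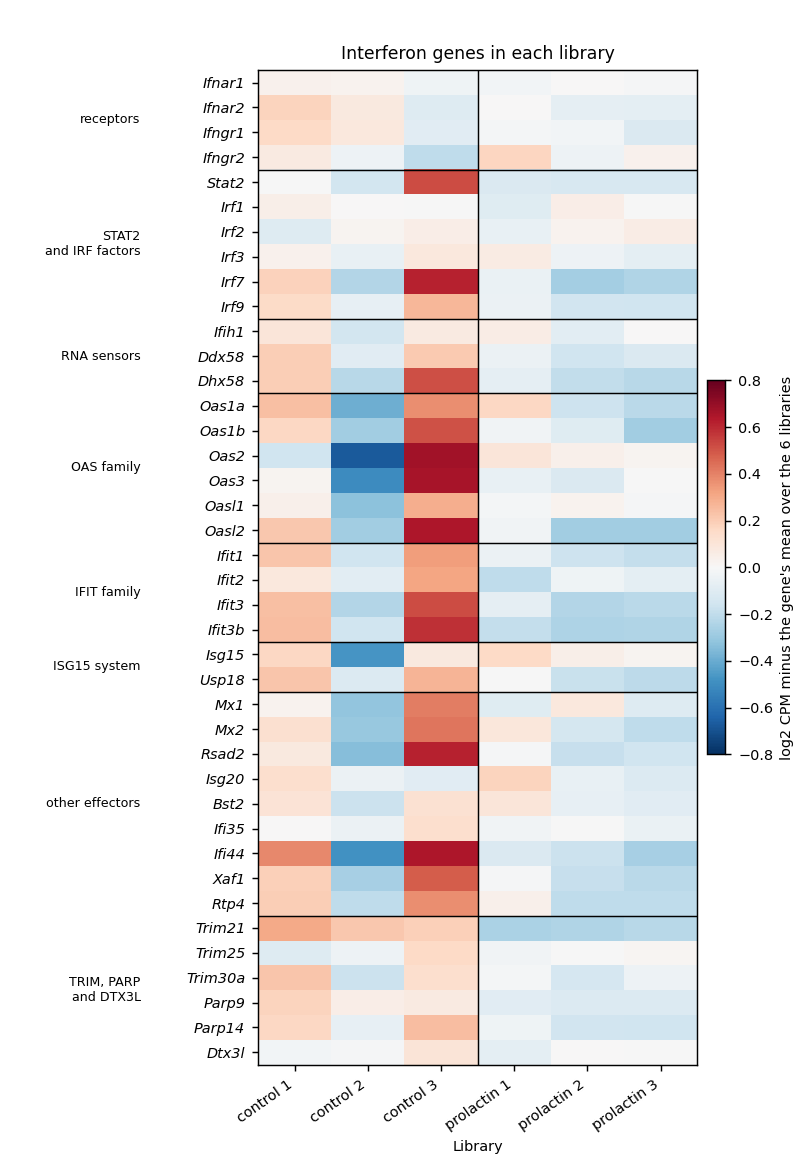
Log2 CPM of each gene minus its mean over the 6 libraries, in red above and blue below the mean, with rows grouped by role and a line between control and prolactin. OAS, IFIT and effector genes other than Isg20 are red in control replicate 3 and blue in control replicate 2, while Trim21 and Parp9 are red in all 3 control libraries and blue in all 3 prolactin libraries.

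The spread between control libraries was also described by the letters of the upstream window. The SD over control libraries had a median of 0.347 in the 13 members with a match and 0.14 in the 18 without, and the median ratio of control replicate 3 to control replicate 2 was 1.47 and 1.12. The groups also differ in role, since all the receptor genes were without a match. Uneven members stood in both groups, such as Oas3 (SD 0.579) with a match and Ifi44 (0.593) and Oasl2 (0.463) without. Irf2, with a match, was at 0.0836. The 9 members with no window were as uneven as those with a match, with a median SD of 0.36 and a ratio of 1.65. Their upstream letters were not searched, so they cannot show whether the unevenness is particular to members with a match. Over the prolactin libraries the median SD was 0.0713 and 0.067. The median log2 change in prolactin was -0.17 with a match, -0.105 without and -0.24 in members with no window. These are descriptions of 6 libraries with no test.

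Marker genes of the cell types in islets also differed between the libraries. Averaged over 10 acinar markers, mostly genes of digestive enzymes, log2 CPM deviated from the 6-library mean by 0.183, -1.419 and 1.448 in control replicates 1, 2 and 3, and by 0.559, -0.412 and -0.359 in prolactin replicates 1, 2 and 3. The mean of the interferon genes deviated by 0.124, -0.166 and 0.280 in control replicates 1, 2 and 3 and by -0.020, -0.101 and -0.117 in the prolactin replicates. Summed acinar markers reached 484 to 2846 CPM in control and 823 to 1838 CPM in prolactin, with 10 of 10 tested and 0 called. Stromal markers summed to 368 to 546 CPM in control and 735 to 916 CPM in prolactin, with 2 of 10 called higher, and endothelial markers to 266 to 300 CPM in control and 312 to 320.1 CPM in prolactin, with 1 of 10 called higher. Macrophage and leukocyte markers summed to 137 to 143 CPM in control and 137 to 149 CPM in prolactin, with 0 of 15 tested called. The T-cell gene Cd3e was near 0. Of 6 ductal markers 0 were called, and their mean deviation was highest in prolactin replicate 1, at 0.356, and lowest in control replicate 3, at -0.228. The mean of 7 islet endocrine markers deviated by 0.063, 0.134 and 0.070 in the control replicates and by -0.045, -0.117 and -0.106 in the prolactin replicates. It was lower in prolactin, but highest in control replicate 2, the lowest library of the interferon genes. Of these 7, 1 was called lower, the somatostatin gene Sst (log2 change -0.40, edgeR adjusted p = 0.0488), and the pancreatic polypeptide gene Ppy was at -0.74 (adjusted p = 0.0708). Changes were negative in 6 of the 7, while the glucagon gene Gcg was at 0.27 (edgeR adjusted p = 0.491). The part of these cells in the differences between libraries was not tested, and in bulk RNA fewer cells of a type and less RNA per cell cannot be told apart.

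**Figure D5:**
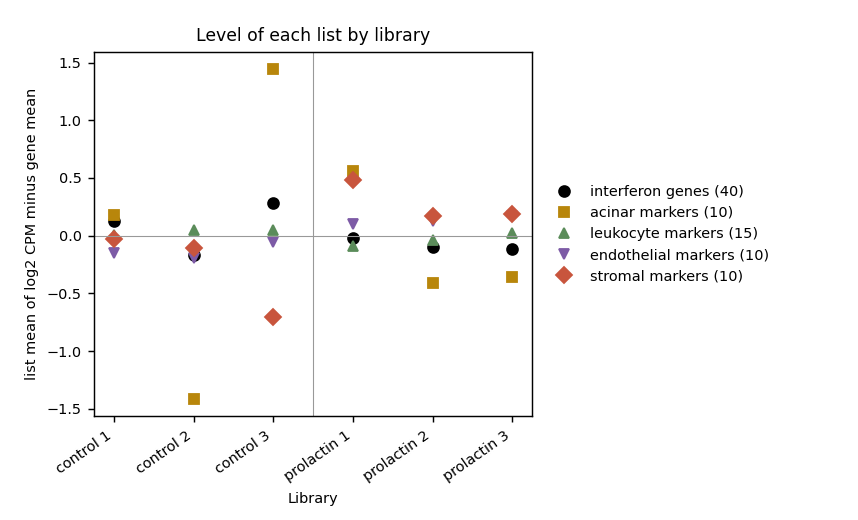
Mean log2 CPM of each list minus its mean over the 6 libraries, with 1 symbol per list and library. The interferon genes lie highest in control replicate 3 and lowest in control replicate 2, the same extremes as the acinar markers, while the leukocyte markers stay between -0.088 and 0.050.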

How the data were processed

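Per the labels' protocols, polyadenylated RNA was made into NEBNext Ultra II libraries and sequenced on a NovaSeq X Plus. The deposited counts are whole reads per gene name, made by the authors with featureCounts 2.0.3 and GENCODE vM10 models, per the file headers; the command sets no strand and no option for reads that map to several places, and it can count both mates of a pair. The submitters' processing notes name mm10, DESeq2, SAMtools 1.21 and Subread 2.1.0, while an aligner was not given in the sources used here. Log2 fold changes and p-values stand in the authors' deposited table, and DESeq2 1.42.0 on the counts gave its log2 changes within 3.9e-09.

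Counts were fitted with edgeR 4.0.16 (R 4.3.3): TMM scaling, expression filter (minimum count 10, minimum total 15), condition as the only term, two-sided quasi-likelihood test, Benjamini-Hochberg adjustment across all genes tested, threshold 0.05. Log2 CPM for spreads used a prior count of 2. Alternatives were other scalings and filters, DESeq2, limma-voom (limma 3.58.1), a replicate block, halved counts, prolactin replicates 2 and 3 summed, no hormone or mitochondrial genes, and each library left out. The fit was tested on simulated data, drawn independently for each gene and library. These held neither a close pair of libraries nor shifts shared between genes, so they do not test the calls under those features. Per-library values are given for called members, the 12 smallest p-values, the 2 most abundant per length in each role class and close paralogs, and for at most 4 genes of each further list; 1 further gene that the rule names is not reported here. The members and lists were chosen with earlier results of these data known.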

Additional observations from a re-analysis of the deposited data

How the results depend on the processing

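No member was called higher under any of the 16 alternatives. The count of members called lower, 1 in the reported fit, was 2 with no filter, 3 with DESeq2 and 0 with prolactin replicates 2 and 3 summed, and 0 to 1 when single libraries were left out. Of the further lists, all at 0 in the reported fit, the signalling list had 1 gene higher with the replicate block (Irf2bp2), and the sensing list 1 lower with DESeq2 and 1 with the replicate block, Tlr3 in both. The list of further interferon-stimulated genes had 1 higher and 6 lower with DESeq2, 3 lower with no filter, 2 with the replicate block, and 1 each with upper-quartile scaling, the filter of 1 CPM, halved counts and no hormone or mitochondrial genes (Tor3a in these 4), and 0 to 2 without single libraries. The members' median log2 change ranged from -0.3108 to -0.07378 without single libraries, and 30 to 38 of 40 changes stayed negative. Members at an unadjusted p under 0.05 in the lower direction numbered 3 to 22 over all alternatives.

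The sign of the change turned for 11 members when a library was left out: Irf1 (-0.066 to 0.0091), Irf2 (-0.029 to 0.050), Ifih1 (-0.092 to 0.026), Oas2 (-0.26 to 0.44), Oas3 (-0.43 to 0.15), Oasl1 (-0.17 to 0.13), Isg15 (-0.047 to 0.25), Mx1 (-0.27 to 0.091), Isg20 (-0.088 to 0.076), Bst2 (-0.13 to 0.0058) and Trim25 (-0.067 to 0.066). Oas2 was also at -0.00055 without hormone and mitochondrial genes. Over all genes, 156 higher and 25 lower calls became 776 and 303 with DESeq2, 464 and 134 with the replicate block, 470 and 127 with no filter, 342 and 234 without control replicate 3, and 42 and 2 with the close prolactin pair summed. Same-numbered libraries deviated together with correlations of 0.541, 0.324 and 0.0872. Control replicate 1 had -0.468 and -0.49 with prolactin replicates 2 and 3. Control replicate 2 had 0.35 with prolactin replicate 3, and control replicate 3 had 0.0918 with prolactin replicate 2. Whether the numbers pair the libraries is not settled by these values, and the reported fit did not pair them. Trim21 passed in edgeR with the block (adjusted p = 0.00649).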
